A study of Mus musculus with 9 samples.

Results

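The genes described here are 8 genes of major histocompatibility complex (MHC) antigen presentation, B2m, H2-K1, H2-D1, H2-Aa, H2-Ab1, H2-Eb1, Cd74 and Ciita. They were chosen by symbol, as every non-control probe whose gene name in the array files is 1 of the 8. They were 8 of 27186 named genes on the array and 8 of 18479 named genes tested, and none was removed by the filter on dim probes. Their levels were compared in kidney glomeruli, where blood is filtered, that had been pulled out with Dynabeads. The mice were males of the BTBR strain, 22 weeks old. The first group was BTBR wild type (WT) fed vehicle-containing food, and the second was BTBR ob/ob fed the same. The third was BTBR ob/ob fed enarodustat, which blocks the oxygen-sensing enzymes that send hypoxia-inducible factor to degradation. Feeding lasted 18 weeks in every group. ob/ob mice lack functional leptin, and on this strain they become obese and diabetic, so genotype, obesity and diabetes cannot be told apart in these groups. No WT group on enarodustat was analysed here. Each group had 3 samples on 1 one-colour array each. No label tells whether a sample was 1 mouse or a pool, so the p-values measure the spread between these samples, which may be technical.

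Class I molecules pair a polymorphic heavy chain, such as those encoded by H2-K1 and H2-D1, with beta-2 microglobulin, the product of B2m. They sit on nearly all nucleated cells and show peptides made in the cell to CD8 T cells. Class II molecules are dimers of an alpha chain (H2-Aa) and a beta chain (H2-Ab1, H2-Eb1) that show peptides taken up from outside to CD4 T cells, and Cd74 encodes the invariant chain that guards the groove until loading. Class II is found mainly on macrophages, dendritic cells and B cells and can be induced by interferon gamma on other cells. Ciita encodes the coactivator that class II transcription depends on. In the kidney, resident macrophages and dendritic cells are the usual class II positive cells, and most cells of the glomerulus carry class I.

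Promoters of class I and class II genes and of B2m share a regulatory module, in which an X box is followed by a Y box that reads as an inverted CCAAT. The windows are shown as a description of the genes, and whether this module had a part in their levels on these arrays was not tested. RefSeq promoter windows of build GRCm38.p6 matched 5 of the 8 genes. They are reference sequences, and the promoter sequences of the BTBR mice were not examined. Each sequence is the 200 bases before the annotated start, 5′ to 3′ on the gene's strand. Capitals mark matches on either strand to CCAAT, to TGACG (the core of the X2 element), to GAANNGAAA (a core of interferon response elements) and to GGGGATTCC (a kappa B motif). Where matches overlap, the capitals run together.
B2m, chr2:122147487-122147686, plus strand: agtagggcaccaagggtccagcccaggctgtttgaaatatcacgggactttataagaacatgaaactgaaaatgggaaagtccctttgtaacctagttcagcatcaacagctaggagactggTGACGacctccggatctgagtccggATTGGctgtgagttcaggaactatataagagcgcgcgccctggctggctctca
H2-K1, chr17:34000334-34000533, minus strand: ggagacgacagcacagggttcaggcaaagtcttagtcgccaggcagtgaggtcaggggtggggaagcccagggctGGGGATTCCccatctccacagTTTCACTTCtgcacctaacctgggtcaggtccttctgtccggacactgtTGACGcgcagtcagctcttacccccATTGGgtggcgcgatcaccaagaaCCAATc
H2-D1, chr17:35262894-35263093, plus strand: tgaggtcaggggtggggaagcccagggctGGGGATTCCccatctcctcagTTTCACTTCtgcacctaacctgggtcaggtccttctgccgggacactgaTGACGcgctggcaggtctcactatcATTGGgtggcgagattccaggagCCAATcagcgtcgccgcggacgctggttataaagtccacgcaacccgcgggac
H2-Aa, chr17:34287824-34288023, minus strand: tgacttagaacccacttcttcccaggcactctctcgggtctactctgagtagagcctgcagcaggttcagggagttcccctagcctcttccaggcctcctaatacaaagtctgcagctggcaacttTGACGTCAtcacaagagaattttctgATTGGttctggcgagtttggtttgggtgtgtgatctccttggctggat
H2-Eb1, chr17:34305667-34305866, plus strand: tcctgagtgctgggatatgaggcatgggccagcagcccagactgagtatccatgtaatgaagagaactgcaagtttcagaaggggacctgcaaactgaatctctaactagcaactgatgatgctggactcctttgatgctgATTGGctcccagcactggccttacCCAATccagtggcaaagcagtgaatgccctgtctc

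CCAAT was found in 5 of the 5 windows, against 29.3% of 32851 windows of the same length in the table. TGACG was found in 4 of 5, all but H2-Eb1, against 15.7%. In B2m, H2-K1 and H2-D1 the ATTGG began 25 bases after the TGACG, and in H2-Aa it began 26 bases after. A spacing of 24 to 27 bases between these motifs on 1 strand, a range chosen after the windows were seen, was present in 0.204% of all windows. GAANNGAAA and GGGGATTCC, as these exact letters, were each found in H2-K1 and H2-D1 and in no other of the 5, against 4.995% and 0.155% of all windows. The B2m window holds gaaactgaaa, which is spaced differently from GAANNGAAA, so this search did not count it. The H2-K1 and H2-D1 windows are related copies, with 130 of 154 bases identical in their best ungapped overlap, so their matches are not independent. For H2-K1 the table holds 2 windows 14 bases apart, and the one with the start farther downstream is shown. A match is a description of the letters and not of a bound site.

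The arrays agreed closely over the 24150 features tested, with correlations of 0.973 to 0.991 within groups. Median log2 levels of 12 podocyte markers were 3.46 to 4.86 per array and those of 10 glomerular endothelial markers 3.90 to 4.38. All of these were well above background on every array but for Col4a3, a podocyte collagen chain, which was so on none of the enarodustat arrays. Of 12 podocyte markers tested, 7 had an adjusted p under 0.05 by limma and were lower in ob/ob vehicle than in WT. This held for 2.66% of all features. All 12 were lower by estimate, with a median log2 difference of -0.90. Tubule RNA varied between arrays of the same group. The median of 13 proximal tubule markers was 3.49 on WT vehicle 3 and 2.33 on ob/ob enarodustat 2, against -2.49 to 0.27 on the other 7 arrays. ob/ob enarodustat 3 was the single array on a second slide and scan, so no other array shares its slide.

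All values for the 8 genes are log2 of the processed signal minus the 75th percentile of its array, with 1 probe per gene. Levels of single genes are compared between arrays and not between genes, since probes differ in brightness. The summed levels of marker lists, and the share of 1 gene in a sum, depend on that brightness. A gene is called where limma gave an adjusted p under 0.05, with the Benjamini-Hochberg adjustment over all 24150 features tested. Counts of listed genes as higher or lower are counts of called genes, unless said to be by estimate. Differences are given as log2 with the standard error (SE) of the limma fit, which pools the spread over the 3 groups.

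Against WT, 2 of the 8 genes were called, in ob/ob vehicle glomeruli, both higher. They were B2m, 1.70-fold higher, and H2-Eb1, 2.69-fold higher. Among all features, 4.89% were called higher and 2.66% were called lower in this comparison. The 4 class II genes differed by 1.16 to 1.43, that is 2.23-fold to 2.69-fold, and Ciita by 2.03-fold. Of these 5, H2-Eb1 alone passed the threshold. The values in ob/ob vehicle and WT did not overlap for 6 of 8 genes, all but H2-K1 and H2-D1, and 17.8% of all features had this separation in the higher direction. All 8 differences were positive, with a median of 1.09 against 0.016 over all features. In bulk glomeruli, more cells of a type and more RNA per cell cannot be told apart.

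In glomeruli of ob/ob mice on enarodustat, 7 of the 8 genes were higher than in WT and passed the test, all but H2-D1. Among all features 6.10% were called higher and 4.09% lower. The same 7 genes had no overlap with WT, a separation that 16.8% of all features showed in the higher direction. The median difference was 1.39, against -0.0056 over all features. The largest was H2-Ab1, 3.18-fold higher, and the smallest called was H2-K1, 1.75-fold higher.

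Set directly against ob/ob vehicle, none of the 8 genes was called on enarodustat, and 0% of all features were. The smallest adjusted p by limma over all features was 0.204, and 1692 of the 24150 features had an unadjusted p under 0.05. All 8 differences were small and positive, from 0.09 for H2-Aa to 0.40 for Ciita, with a median of 0.18 against -0.027 over all features. None of the 8 had groups that did not overlap, while 16.0% of all features had, in either direction. The 3 comparisons share arrays, so the larger number called on enarodustat than on vehicle is not separate evidence, and this direct comparison is the test of that difference. Its 95% intervals reached from 0.60-fold to 1.89-fold for H2-Aa, from 0.76-fold to 2.18-fold for H2-Ab1, from 0.77-fold to 2.25-fold for Ciita and from 0.86-fold to 1.44-fold for B2m.

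**Figure D1:**
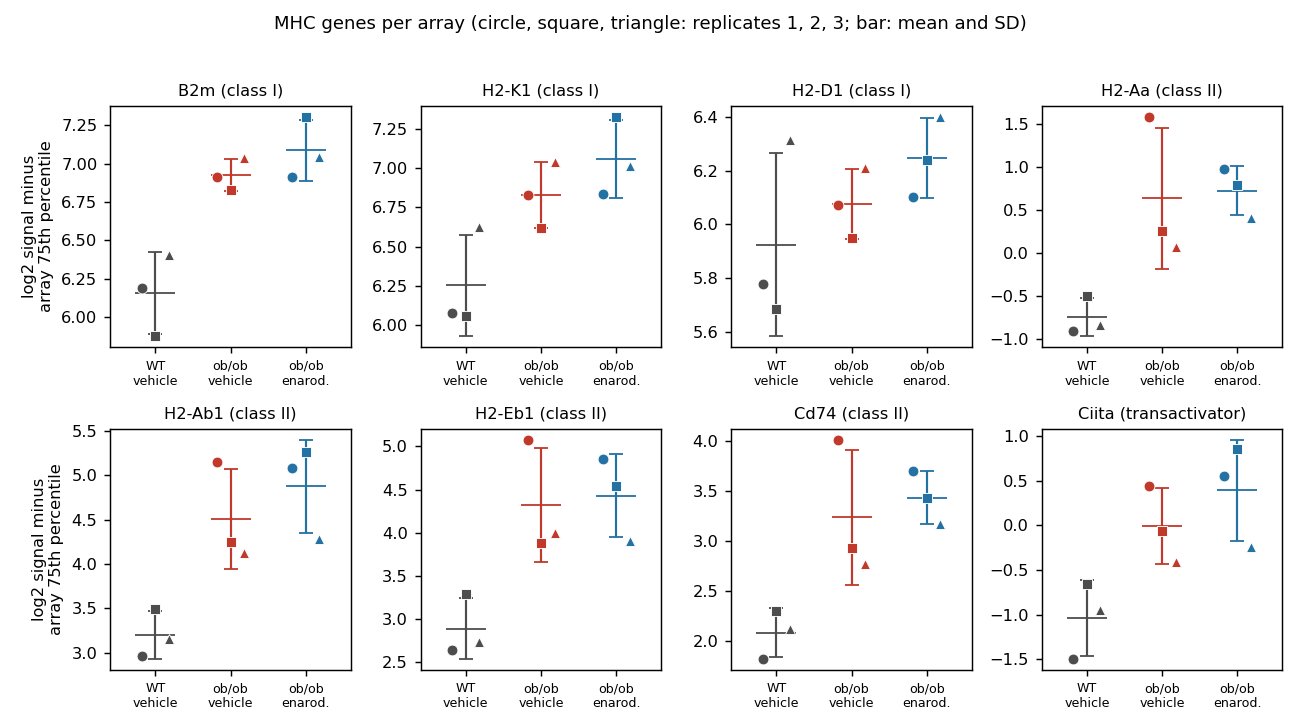
Log2 level (processed signal minus the 75th percentile of the array) of each of the 8 genes on the 9 arrays, in 8 panels with their own axes, where circles, squares and triangles are replicates 1, 2 and 3 and bars are the mean and SD of 3 arrays. The WT arrays lie lowest for all class II genes and Ciita, ob/ob vehicle 1 is the highest of its group in each of them, and the 3 groups overlap for H2-D1.

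B2m, the light chain shared by all classical class I molecules, read 6.19, 5.88 and 6.40 in WT. In ob/ob vehicle it read 6.91, 6.83 and 7.03, and on enarodustat 6.91, 7.30 and 7.04. Every ob/ob array was above every WT array, and the 2 ob/ob groups overlapped. The difference from WT was 0.77 ± 0.16 (SE, n = 3 per group) in ob/ob vehicle, with an adjusted p of 0.0257 by limma. On enarodustat it was 0.93 ± 0.16, with an adjusted p of 0.0112 by limma. The first call was lost without WT vehicle 1 or 2 or any 1 ob/ob vehicle array, with adjusted p of 0.0533 to 0.0852 by limma. The second held without any 1 array.

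H2-K1, a classical class I heavy chain, read 6.08, 6.06 and 6.63 in WT. Its ob/ob vehicle readings were 6.83, 6.62 and 7.04, and on enarodustat 6.83, 7.32 and 7.02. WT vehicle 3 was the highest WT array and lay just above ob/ob vehicle 2, so those groups overlapped by a narrow margin, while every enarodustat array was above WT. The difference in ob/ob vehicle was 0.58 ± 0.20 with an adjusted p of 0.126 by limma, which misses the threshold. On enarodustat it was 0.80 ± 0.20 with an adjusted p of 0.0404 by limma, 1.75-fold higher. WT vehicle 3 is also the array with the highest tubule marker level. Without it and ob/ob enarodustat 2, the differences were 0.76 and 0.86, with adjusted p of 0.0420 and 0.0416 by limma. The enarodustat call was lost without WT vehicle 1 or 2, without ob/ob vehicle 1 or 2, or without any 1 enarodustat array, with adjusted p of 0.0522 to 0.124 by limma.

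H2-D1, the other classical heavy chain measured, read 5.78, 5.68 and 6.31 in WT, with WT vehicle 3 again highest. The ob/ob vehicle arrays gave 6.07, 5.95 and 6.21, and on enarodustat 6.10, 6.24 and 6.40. All 3 groups overlapped. The differences from WT were 0.15 ± 0.18 and 0.32 ± 0.18, with adjusted p of 0.655 and 0.290 by limma. The 95% intervals were 0.84-fold to 1.47-fold and 0.94-fold to 1.66-fold. Whether H2-D1 differed from WT by less than H2-K1 did was not tested. Without WT vehicle 3 the differences were 0.35 and 0.52, and neither was called.

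Probes of 1 class I gene did not all read alike. The brightest H2-K1 probe lies at chr17:34133055-34133114 (mm9) and gave the values above. A second, at chr17:34133984-34134043, read 5.09, 5.005 and 5.63 in WT, 5.499, 5.24 and 5.53 in ob/ob vehicle and 5.46, 5.73 and 5.79 on enarodustat. Its differences from WT were 0.18 ± 0.19 and 0.42 ± 0.19, and neither was called. Its sequence is shown because 44 of 54 aligned bases, in capitals, equal a probe for the class I-like gene Gm11127.
H2-K1 second probe: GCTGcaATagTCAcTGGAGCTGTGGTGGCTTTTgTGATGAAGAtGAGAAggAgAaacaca
It also shared 22 of 28 aligned bases with a probe for C920025E04Rik. No other probe of the 8 genes outside Cd74, which was not searched, had 25 or more aligned bases at 75% identity with a probe of another gene. B2m has a second probe, made to a cDNA clone at chr2:121974599-121974658 (mm9), while its bright probe lies at chr2:121978401-121978460. The clone probe gave -0.26 ± 0.31 in ob/ob vehicle and 0.37 ± 0.31 on enarodustat, opposite in sign to the bright probe in the first, and neither was called. H2-D1 has 1 probe, at chr17:35403886-35403945.

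H2-Aa, the alpha chain of the I-A class II molecule, read -0.91, -0.50 and -0.83 in WT. Its ob/ob vehicle readings were 1.58, 0.25 and 0.07, and on enarodustat 0.97, 0.78 and 0.41. Each ob/ob array was above each WT array, with ob/ob vehicle 1 well above the rest. The difference in ob/ob vehicle was 1.38 ± 0.36 with an adjusted p of 0.0569 by limma, just outside the threshold. On enarodustat it was 1.47 ± 0.36 with an adjusted p of 0.0397 by limma, 2.76-fold higher.

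H2-Ab1, the beta chain that pairs with it, read 2.96, 3.49 and 3.15 in WT. The ob/ob vehicle arrays gave 5.15, 4.24 and 4.12, and on enarodustat 5.08, 5.26 and 4.28. WT lay below both ob/ob groups, and these overlapped. The difference in ob/ob vehicle was 1.30 ± 0.33 with an adjusted p of 0.0508 by limma. On enarodustat it was 1.67 ± 0.33 with an adjusted p of 0.0178 by limma, the largest change among the 8 genes. H2-Ab1 has 4 probes, and all showed the same pattern. Their differences were 1.18 to 1.31 in ob/ob vehicle and 1.52 to 1.67 on enarodustat. With each probe as its own feature, 2 of the 4 were called in the first comparison and 4 of 4 in the second, though the first pair of probes overlap by most of their length.

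H2-Eb1, the beta chain of the I-E class II molecule, read 2.65, 3.29 and 2.74 in WT. In ob/ob vehicle it read 5.07, 3.89 and 4.003, and on enarodustat 4.85, 4.54 and 3.90. Again no ob/ob array fell to the WT range. The differences were 1.43 ± 0.36 with an adjusted p of 0.0490 by limma and 1.54 ± 0.36 with an adjusted p of 0.0324 by limma. The alpha chain partner H2-Ea was too dim on all 9 arrays to be tested, with levels of -7.60 to -6.74.

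Cd74, the invariant chain, read 1.82, 2.30 and 2.12 in WT. The ob/ob vehicle arrays gave 4.01, 2.93 and 2.77, and on enarodustat 3.70, 3.43 and 3.17. No ob/ob array overlapped WT. The differences were 1.16 ± 0.31 with an adjusted p of 0.0624 by limma and 1.35 ± 0.31 with an adjusted p of 0.0316 by limma, or 2.23-fold and 2.55-fold.

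Ciita, the class II transactivator, read -1.50, -0.66 and -0.95 in WT. Its ob/ob vehicle readings were 0.44, -0.06 and -0.41, and on enarodustat 0.56, 0.85 and -0.24. The ob/ob groups overlapped each other and not WT. The differences were 1.02 ± 0.34 with an adjusted p of 0.110 by limma, and 1.43 ± 0.34 with an adjusted p of 0.0339 by limma. Of its 4 probes the brightest lies at chr16:10526458-10526517 (mm9). A second transcript probe gave 0.92 ± 0.34 and 1.29 ± 0.34, a cDNA clone probe 0.27 ± 0.31 and 0.35 ± 0.31, and the last was too dim on all 9 arrays to be tested.

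The calls of this class rested on few arrays. H2-Eb1 lost its call in ob/ob vehicle without any 1 of the 9 arrays, with adjusted p of 0.05005 to 0.139 by limma, and its difference was 1.05 without ob/ob vehicle 1. That array carried the highest class II level of all 9, with a mean over H2-Aa, H2-Ab1, H2-Eb1 and Cd74 of 3.95, against 2.83 and 2.74 on the other vehicle arrays. On enarodustat, H2-Ab1 lost its call without WT vehicle 1 or ob/ob enarodustat 1 or 2, with adjusted p of 0.0539 to 0.0598 by limma. H2-Eb1, Cd74, H2-Aa and Ciita each lost theirs without any 1 WT array or without ob/ob enarodustat 1 or 2. H2-Aa and Cd74 lost it without ob/ob enarodustat 3 also, and H2-Aa and Ciita without ob/ob vehicle 2. The highest adjusted p among these was 0.109 by limma. Every difference from WT stayed positive in every 1 of these fits.

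**Figure D2:**
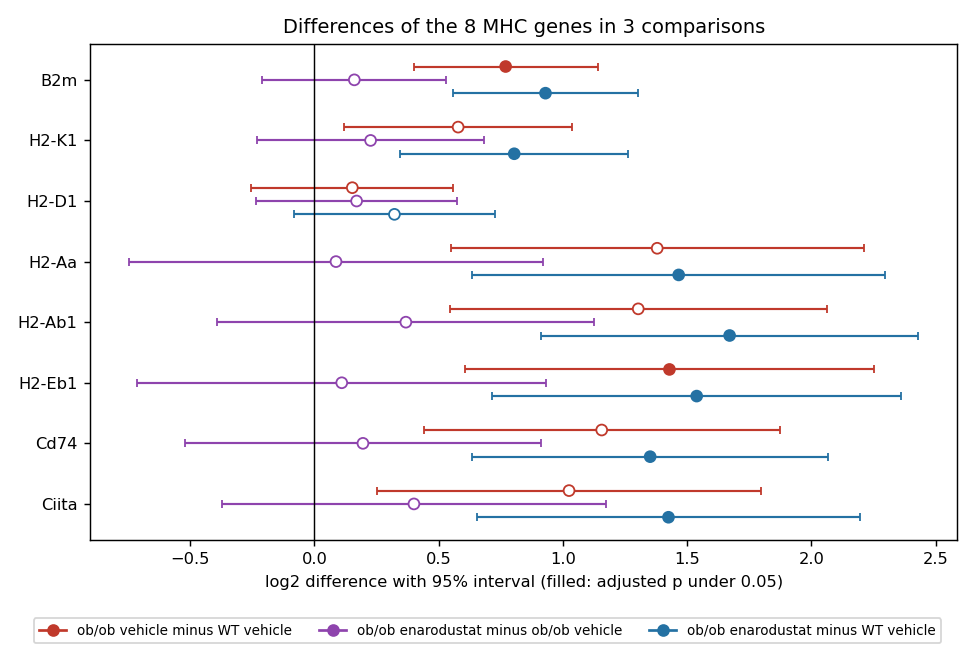
Log2 differences of the 8 genes (horizontal axis) with 95% intervals of the limma fit, in ob/ob vehicle minus WT vehicle, ob/ob enarodustat minus ob/ob vehicle and ob/ob enarodustat minus WT vehicle, 3 arrays per group. Filled points have an adjusted p under 0.05, which holds for B2m and H2-Eb1 in the first comparison, for none in the second and for all but H2-D1 in the third.

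The 8 genes fell into sets that varied together between arrays of the same group. After removing the group means, Pearson r over the 9 arrays was 0.74 to 0.89 among B2m, H2-K1 and H2-D1. Among H2-Aa, H2-Ab1, H2-Eb1, Cd74 and Ciita it was 0.74 to 0.99, highest for H2-Aa with Cd74. Between the sets it was -0.36 to 0.10. These values describe 9 arrays in 3 groups that share processing and RNA preparation, and no p is attached to them. The arrays that lead each set differ. Class I means were highest on ob/ob enarodustat 2 (6.96) within that group and on WT vehicle 3 (6.45) within WT. Class II means were highest on ob/ob enarodustat 1 (3.65) and WT vehicle 2 (2.15). Those class I leaders of WT and enarodustat are the arrays with the highest tubule marker levels, while in ob/ob vehicle array 3 led class I (6.76, against 6.61 and 6.47) with the lowest tubule marker level of all 9, -2.49. The part of tubule RNA in the class I values was not tested beyond the fits without these arrays and the fit with tubule markers as a covariate. With the covariate B2m stayed called, at 0.93 in ob/ob vehicle and 0.99 on enarodustat, with adjusted p of 0.0416 and 0.0104 by limma. H2-Eb1 lost its call in ob/ob vehicle, and H2-Aa and H2-Eb1 lost theirs on enarodustat. The tubule markers differed from WT by medians of -2.37 in ob/ob vehicle and -0.82 on enarodustat. The covariate therefore cannot fully separate tubule RNA from group.

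**Figure D3:**
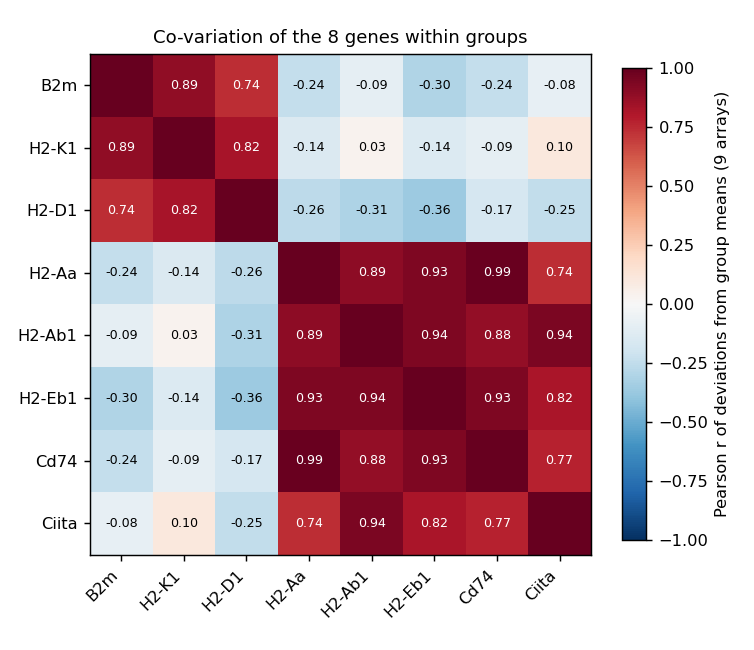
Pearson r between the 8 genes over 9 arrays after subtracting each group's mean, with genes on both axes and the colour scale running from -1 to 1. Class I genes (B2m, H2-K1, H2-D1) form a block of 0.74 to 0.89 and class II genes with Ciita a block of 0.74 to 0.99, while values between the blocks lie from -0.36 to 0.10.

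The named genes whose pattern over the 9 arrays was most like the class I mean, of 15433 compared, were Abcg2 (r 0.967), Ctsd (0.961), Ly6a (0.956), Uap1l1 (0.955) and S100a1 (0.955). Abcg2 encodes a drug efflux transporter, Ctsd a lysosomal protease and Ly6a the surface antigen Sca-1. Among those nearest the class II mean were H2-DMa (0.971), Bend6 (0.965) and Ifi27l2a (0.964). These r values include the difference between groups, so no test between the groups is given for genes chosen by them. With group means removed, they were 0.967 for Abcg2 and 0.913 for Bend6. Bend6 was dim in WT, at -6.20, -5.89 and -6.41, so its r values may rest partly on signal near background.

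The rest of the pathway was followed in 5 lists, with 61 of 68 genes tested. Compared with WT, 6 were higher and 1 was lower in ob/ob vehicle. On enarodustat 14 were higher than in WT and none lower, or 13 without H2-Oa, which was well above background on 2 of 3 WT arrays and passed the filter through the ob/ob groups. Against ob/ob vehicle none was called. Over all features, 4.89% were called higher and 2.66% lower than WT in ob/ob vehicle, and 6.10% and 4.09% on enarodustat. The counts of each list below are to be read against these shares. The median difference over the 61 genes was 0.19 in ob/ob vehicle and 0.26 on enarodustat, against 1.09 and 1.39 for the 8 genes.

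Of 13 tested genes of class I processing and loading, none was called in ob/ob vehicle and 3 were higher on enarodustat. Psmb8, a subunit of the immunoproteasome that makes class I peptides, differed by 0.72 ± 0.24 and 1.13 ± 0.24. Nlrc5, the class I counterpart of Ciita, differed by 1.43 ± 0.48 and 2.09 ± 0.48, and Psme1, a proteasome activator subunit, by 0.25 ± 0.14 and 0.56 ± 0.14. The calls on enarodustat had adjusted p of 0.0234, 0.0309 and 0.0432 by limma. For Nlrc5, enarodustat 2 read 1.86, against 0.03 and 0.28 on the other enarodustat arrays and -1.73, -1.56 and -0.81 in WT. A dimmer Nlrc5 probe gave 0.81 and 0.79. Tap2, a chain of the peptide transporter, gave 0.77 ± 0.29 and 0.99 ± 0.29, with -0.32 and -0.005 by a dimmer probe, and Psmb10 gave 0.52 ± 0.25 and 0.76 ± 0.25. Neither gene passed the test.

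Among 17 tested class I heavy chains and other partners of B2m, 4 were higher and 1 was lower in ob/ob vehicle, and 5 were higher on enarodustat. The non-classical chains H2-T10, H2-T22 and H2-M3 were higher in both, with H2-T10 at 0.94 ± 0.16 and 1.11 ± 0.16. H2-T22 stood at 0.81 ± 0.15 and 1.11 ± 0.15, and H2-M3, which presents formylated peptides, at 0.56 ± 0.12 and 0.62 ± 0.12. Fcgrt, the neonatal Fc receptor that recycles IgG and albumin, was 0.76 ± 0.17 higher in each. Hfe, a regulator of iron uptake, gave 0.49 ± 0.17 in ob/ob vehicle, not called, and was called on enarodustat at 0.70 ± 0.17. H2-Q8 went the other way. It read 6.02, 6.22 and 6.50 in WT and 5.47, 5.54 and 5.15 in ob/ob vehicle, lower by a log2 change of -0.86 ± 0.20 with an adjusted p of 0.0342 by limma. On enarodustat it read 5.51, 5.48 and 6.04, a difference of -0.57 ± 0.20 that was not called. Its relatives H2-Q7 and H2-Q10 gave -0.41 ± 0.16 and -0.46 ± 0.18 in ob/ob vehicle and were not called. The other H2-Q7 probes gave -0.65 and -0.82 there. The other H2-Q10 probes, from brightest to dimmest, gave -0.33, 0.70 and 0.27. Class I genes resemble each other closely, and the H2-Q8 probe shares 32 of 37 aligned bases with an H2-L probe and 27 of 31 with an H2-T23 probe, so its value may include RNA of relatives.

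Class II processing and loading had 10 tested genes, with 1 higher in ob/ob vehicle and 3 on enarodustat. Ctss, the lysosomal protease that trims the invariant chain, read 0.25, 0.40 and -0.38 in WT, 3.06, 2.38 and 2.495 in ob/ob vehicle and 2.63, 2.59 and 2.01 on enarodustat. Both ob/ob groups lay well above WT. The differences were 2.55 ± 0.27 and 2.32 ± 0.27, with adjusted p of 0.00248 and 0.0032 by limma. H2-DMa, a chain of the peptide exchange factor for class II, differed by 0.82 ± 0.23 and 1.11 ± 0.23, and H2-Oa, a chain of its inhibitor, by 0.81 ± 0.29 and 1.29 ± 0.29, and both were called on enarodustat. H2-DMb1, the partner of H2-DMa, gave -0.19 ± 0.11 and -0.15 ± 0.11, and the protease Lgmn 0.38 ± 0.23 and 0.24 ± 0.23. Neither H2-DMb1 nor Lgmn was called.

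Of 10 tested promoter factors, Irf8 was called higher in both ob/ob groups, at 0.79 ± 0.12 and 0.86 ± 0.12. Irf1 gave 0.53 ± 0.17 in ob/ob vehicle, not called, and 0.98 ± 0.17 on enarodustat, where it was called. Irf8 and Irf1 are interferon regulatory factors, the former a factor of myeloid cells. A dimmer Irf8 probe gave 0.10 and 0.21. The subunit Rfxank of the X box complex gave -0.30 ± 0.17 and -0.44 ± 0.17, and Irf2 0.21 ± 0.17 and 0.15 ± 0.17, neither called. The interferon gamma pathway list had 11 tested genes and 1 call, Gbp2, an interferon-induced GTPase, at 0.62 ± 0.23 and then 0.86 ± 0.23 on enarodustat, where it was called. Irgm1 (0.44 ± 0.31 and 1.04 ± 0.31) and Ifngr2 (0.50 ± 0.18 and 0.36 ± 0.18) were not called. Ifng itself was too dim on all 9 arrays to be tested, with levels of -7.36 to -5.42.

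**Figure D4:**
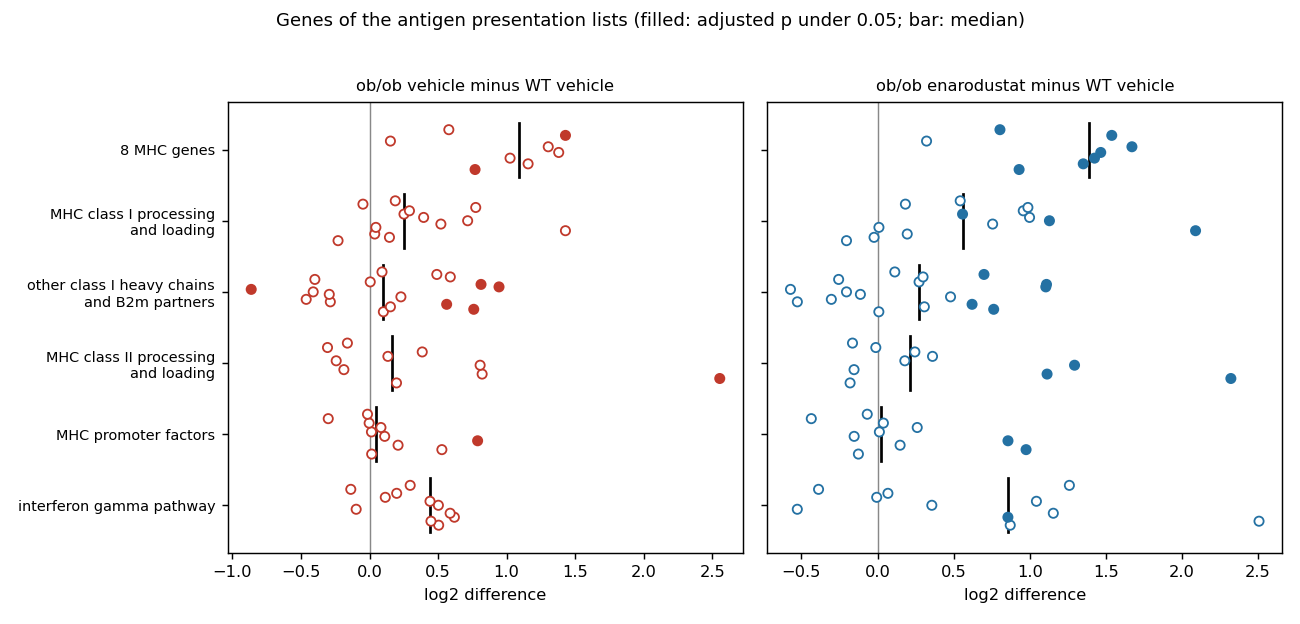
Log2 differences (horizontal axis) of the 8 MHC genes and of the tested genes of 5 antigen presentation lists, each point 1 gene and each bar the median of a list, in ob/ob vehicle minus WT vehicle (left) and ob/ob enarodustat minus WT vehicle (right). Filled points have an adjusted p under 0.05, and the medians of the 8 genes, 1.09 and 1.39, lie to the right of those of all 5 lists.

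Costimulation by antigen presenting cells was read from 7 tested genes, of which 1, Cd48, was above background in all groups and called in both comparisons with WT. Cd48, an adhesion ligand of leukocytes, differed by 0.93 ± 0.16 and 0.71 ± 0.16. Cd86, a ligand of CD28, was not well above background on any WT array, so its fold is a lower bound, and it passed the filter only through the ob/ob groups, where it had to be higher. The bound sets the mean of the brighter group against the mean over WT arrays of either the dimmest signal well above background on that array or the probe's own signal, whichever was higher. Cd86 was at least 3.02-fold higher in ob/ob vehicle and at least 2.57-fold higher on enarodustat, from measured means of -5.59, -3.49 and -3.72 and with adjusted p of 0.0356 and 0.0444 by limma. Icosl and Cd274 differed by 0.63 to 0.84 and were not called. Of 7 tested T cell genes, Lck, a kinase bound to CD4 and CD8, was 1.12 ± 0.15 and 1.22 ± 0.15 higher, and 0.40 and 0.67 by a dimmer probe. Cd8b1 gave 0.43 ± 0.12 in ob/ob vehicle, not called, and was called on enarodustat at 0.49 ± 0.12. Cd3e at -0.11 ± 0.15 and 0.01 ± 0.15 and Cd8a at -0.25 ± 0.19 and -0.34 ± 0.19 were not called.

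Some markers of leukocytes were higher in the same groups. Of 15 macrophage markers, 8 were higher in ob/ob vehicle and 6 on enarodustat, or 7 and 5 without Fcgr1, with medians of 1.81 and 1.41, or 1.80 and 1.16 with Fcgr1 at its lower bound. Fcgr1 was not well above background on any WT array, passing the filter through ob/ob vehicle, and the others were above it on 2 or 3. The log2 of the summed level of the list was 6.43 to 6.60 in WT, 6.82 to 6.87 in ob/ob vehicle and 6.55 to 6.75 on enarodustat. Itgam made up 31.5% to 60.5% of that sum, and it gave -0.17 and 0.11 against WT and was not called. Against ob/ob vehicle, 12 of the 15 were lower on enarodustat by estimate, with a median of -0.29 and none called, where all 8 MHC genes were higher by estimate. ob/ob vehicle 1, the array with the highest class II mean, also had the highest macrophage median, 1.49 against 0.33 and 0.32. On enarodustat, array 1 again led, with 0.77 against 0.25 and -0.12. In WT, array 2 had the highest class II mean, 2.15. Its macrophage median was -0.762, against -0.752 and -1.335 on WT arrays 1 and 3.

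Of 4 pan-leukocyte markers, 3 were higher in both comparisons, while Ptprc gave -0.39 and -0.56 and was not called. The summed level of those 4 was 3.57 to 3.81 in WT, 3.77 to 3.88 in ob/ob vehicle and 3.31 to 3.87 on enarodustat, of which Ptprc made up 53.9% to 86.4%. Of 8 tested dendritic cell markers, Itgax was higher and Flt3 lower in both, at 1.498 and -0.92 in ob/ob vehicle, and Batf3 was higher on enarodustat. Their summed level was 7.67 to 8.12, 7.57 to 7.78 and 7.53 to 7.87, with Xcr1 and Irf4 not tested as too dim. Siglech made up 98.7% to 99.3% of that sum, so the sum says nothing of the other 7 markers. Of 5 tested B cell markers, none was called in ob/ob vehicle, and on enarodustat Cd79b was called, which was above background on 2 of 3 WT arrays. Their summed level was -0.48 to -0.25 in WT, -0.21 to -0.01 in ob/ob vehicle and 0.04 to 0.35 on enarodustat, and Cd79a, Fcrla and Blk were too dim to test. The part of these cells in the MHC values was not tested.

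Markers of the resident cells of the glomerulus were read on the same arrays. Of 10 endothelial markers, none was called higher and Cldn5 was called lower in each comparison with WT, while 8 were higher by estimate in each. Of 8 mesangial markers, 2 were called higher in each, while 8 were higher by estimate in ob/ob vehicle and 7 on enarodustat. On enarodustat 10 of 12 podocyte markers were called lower than in WT, or 9 without Col4a3. All 12 were lower by estimate, with a median of -1.09. No proximal tubule marker of 13 was called in any comparison, with medians of -2.37, 1.60 and -0.82 in the 3 comparisons. Of 3 tested erythroid markers, none was called in ob/ob vehicle and 2 were higher on enarodustat, or 1 without Alas2, which was above background on 1 WT array.

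**Figure D5:**
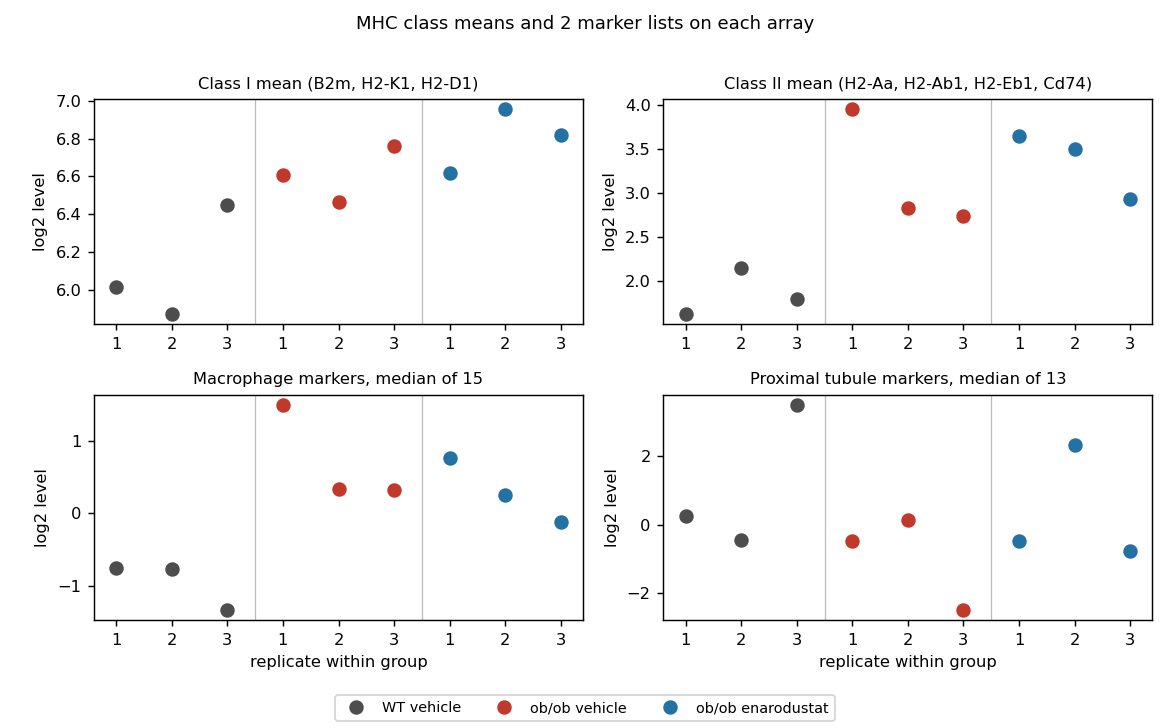
Log2 levels on each of the 9 arrays (horizontal axis, replicate number within group, coloured by group) of the class I mean, the class II mean, the median of 15 macrophage markers and the median of 13 proximal tubule markers. ob/ob vehicle 1 is the highest array for class II (3.95) and for macrophage markers (1.49), while WT vehicle 3 and ob/ob enarodustat 2 have the highest tubule marker levels (3.49 and 2.33) and the highest class I means of their groups, and ob/ob vehicle 3 has the highest class I mean of its group (6.76) with the lowest tubule marker level (-2.49).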

How the data were processed

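Total RNA of glomeruli, carrying 1 dye (Cy3), was read on Agilent mouse arrays, as the labels' protocols state. The deposited scanner files were written by Feature Extraction 11.5.1.1 and give, per the file headers, spot intensity on a linear scale, background-subtracted and not normalized between arrays. Probe coordinates are mm9, per the file headers. The authors' deposited value table holds log2 values. Set against the scanner files, each column equalled log2 processed signal minus a constant near the 75th percentile of that array (medians of its columns -3.10 to -2.93). Its scale, centring and direction were so found from the values. limma is named in the submitters' processing notes without a role. No spot value was saturated.

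Control spots (3671) and outlier spots were left out, and spots of a probe were averaged. Values are log2 processed signal minus the 75th percentile of the array. Probes well above background on all 3 arrays of at least 1 group were kept (36671 of 56573), and the brightest probe stood for a gene. Gene names were updated through RefSeq (GRCm38.p6). The fit used limma 3.58.1 (lmFit, contrasts.fit, eBayes) in R 4.3.3 over 9 arrays and 3 groups, with Benjamini-Hochberg adjustment over 24150 features (18479 named). It was checked on simulated data. Sequences and figures used Python with matplotlib 3.10.9. The number of arrays limits the precision.

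The 8 genes and all lists were chosen with earlier results of these data known. Named from the 7 lists of pathway, costimulation and T cell genes were every gene called in a comparison (at most 6 per list, by smallest p in the first) and the 2 smallest p not called. Genes of like pattern are the 5 with the highest r with each class mean, predicted and clone names skipped; some of them are not reported here. Markers named singly, and H2-Ea and Ifng, were chosen after their values were seen. Alternatives changed normalization, background correction, filter, probe choice, spread estimate, weights, arrays used, slide, tubule RNA and replicate block. Same-numbered arrays did not deviate together (r -0.31 to 0.27), so numbers were not taken as pairs.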

Additional observations from a re-analysis of the deposited data

How the results depend on the processing

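The 24 alternatives left every difference of the 8 genes from WT positive. Between the 2 ob/ob groups, 7 estimates turned negative, none of them called. Without ob/ob vehicle 2, ob/ob vehicle 3 and ob/ob enarodustat 1 in turn, H2-Aa gave -0.104, -0.194 and -0.0382 and H2-Eb1 -0.108, -0.0494 and -0.0996. Without ob/ob vehicle 3, Cd74 gave -0.0381. Leaving out single arrays thus moved H2-Aa from -0.194 to 0.557, H2-Eb1 from -0.108 to 0.486 and Cd74 from -0.0381 to 0.581, each highest without ob/ob vehicle 1. No feature was called in that comparison under any alternative.

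In ob/ob vehicle against WT, 2 of the 8 genes were called, with 0 under no filter, 0 with the mean of the probes of a gene and 0 with a replicate block. The count was 1 under quantile normalization, 1 under normexp with quantile normalization together, 1 with only the 2 groups compared and 1 with the tubule covariate. It was 4 with probes above background on all 9 arrays, 4 with an intensity trend and robust eBayes and 6 with array weights. On enarodustat against WT, 7 became 2 under no filter, 4 with the mean of probes, 4 with the slide as a block (which equals leaving out ob/ob enarodustat 3) and 2 without WT vehicle 3 and ob/ob enarodustat 2. Leaving out single arrays gave 0 to 2 calls and 1 to 7.

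Pathway genes called numbered 7 in ob/ob vehicle, with 4 under no filter, 13 with array weights, 4 with a replicate block, 2 with the tubule covariate and 3 to 12 without single arrays. On enarodustat they numbered 14, with 6 under no filter, 22 with weights, 8 with 2 groups, 7 with the slide block, 8 without those arrays and 6 to 12 without single arrays. Features called were 1823 and 2461, with 1005 and 1227 under no filter, 4181 and 4527 with weights, 686 with the tubule covariate in the first, 1365 with the slide block and 1292 without those arrays in the second, and 916 to 1774 and 1215 to 2163 without single arrays. Under no filter more features are tested, and without arrays fewer samples are. For the others the cause was not tested.

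The replicate block moved the calls among the 8 genes from 2 to 0 and from 7 to 6, and 4 of 9 arrays correlated best with an array of their own number. Each probe as its own feature, chosen after seeing the data, gave 3 and 7 calls among the 8 genes. The number of arrays, 3 per group, limits the precision.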
